A study of Mus musculus with 10 samples.

Results

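This account covers 33 genes that bring glucose and lactate into cells, run glycolysis, and pass pyruvate into mitochondria. They were chosen as a list of symbols, and all 33 were among the 32531 gene symbols in each count table. The list holds 2 glucose transporters, 2 hexokinases, 3 phosphofructokinase subunits, 4 enzymes of the PFKFB family, 9 other glycolytic enzymes, 2 lactate dehydrogenases, 2 monocarboxylate transporters, 2 subunits of the mitochondrial pyruvate carrier, 3 proteins of the pyruvate dehydrogenase complex and 4 pyruvate dehydrogenase kinases.

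RNA came from the whole striatum of adult Drd2-TRAP CP101 mice, which carry a ribosomal protein tagged with green fluorescent protein (EGFP/Rpl10a) under Drd2 control. All groups carried this transgene, and each had short-access intravenous self-administration of either saline or cocaine. Translating ribosome affinity purification (TRAP) pulls down the tagged ribosomes with an antibody to the tag, so the immunopurified (IP) RNA is enriched for messages of cells that express Drd2. There were 3 IP libraries after saline (numbered 1, 2 and 4), 5 IP libraries after cocaine (numbered 1 to 5), 1 input library from a saline sample and 1 unbound library, the RNA left after the pulldown, from a cocaine sample. Drd2 is expressed by indirect-pathway medium spiny neurons and also by cholinergic interneurons, so the tag is not limited to the spiny neurons that the labels name. The labels do not say whether the libraries of a group came from separate animals or from pools, and any p-value given here therefore covers the spread among these libraries alone, which may be technical. Values in a list follow the library numbers throughout, and levels are CPM, each gene's reads relative to all gene reads of its library, scaled with TMM factors over all 10 libraries.

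Glycolysis splits glucose into pyruvate and yields ATP in the cytosol. Pyruvate can be turned into lactate by lactate dehydrogenase, or enter mitochondria through the pyruvate carrier and be oxidised by the pyruvate dehydrogenase complex, which the pyruvate dehydrogenase kinases switch off. In the brain several of these steps have isoforms that differ between cells: neurons are known for the glucose transporter GLUT3 (Slc2a3), the lactate transporter MCT2 (Slc16a7), neuron-specific enolase (Eno2) and the LDH-B subunit (Ldhb), while glia and vessels are known for GLUT1 (Slc2a1), MCT1 (Slc16a1) and alpha enolase (Eno1).

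Gene reads ran from 22975667 to 31631137 in the IP libraries, with 18408782 for the input and 20882691 for the unbound RNA. In the saline IP libraries 8 of 8 indirect-pathway markers were at least 2-fold above the input in every library, while 7 of 7 direct-pathway, 8 of 8 astrocyte and 8 of 8 oligodendrocyte markers were at least 2-fold below it. The summed level of the astrocyte markers was 47.8 to 145.5 CPM against 1775 CPM in the input, and that of the 8 endothelial and mural markers was 0.955 to 2.09 CPM against 20.6 CPM. By the same rule 0 of 5 cholinergic markers were lower, with a median log2 ratio of -1.15. IP libraries 1 of both treatments stood apart from the other 6: their summed indirect-pathway markers were 8012 and 6952 CPM, against 9885 to 13041 CPM, and their cholinergic markers 38.3 and 50.1 CPM, against 19.5 to 28.5 CPM. Their oligodendrocyte markers were also highest, at 465 and 440 CPM against 214 to 349 CPM. Their astrocyte markers, at 145.5 and 114 CPM, lay within the range of the other 6 (47.8 to 149.6 CPM).

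The level of several glycolytic genes in count tables depends on sequence they share with copies elsewhere in the genome. The tables kept reads placed at several sites out of the gene counts, in a separate row that held 33.3% to 47.1% of all reads listed for an IP library, 31.1% for the input and 25.9% for the unbound RNA. The mouse annotation was GENCODE M21 (GRCm38, the same assembly as mm10). Every stretch of 50 bases in the members' protein-coding transcripts was searched for, in the sense direction only, in the transcripts of gene models outside the gene's own locus. For Gapdh, the glyceraldehyde phosphate dehydrogenase often used as a loading control, 94.6% of the stretches of its most affected transcript occurred in another model, and 213 of its 218 matching models were pseudogenes. The share was 85.5% for Eno1, mostly through the copy Eno1b, 68.0% for Pgk1, 45.1% for Gpi1, 44.4% for Mpc1 and 41.5% for Pgam1. It lay between 15.5% and 38.0% for Ldha, Pkm, Pdhb, Ldhb, Aldoa and Tpi1, and under 2% for the other 21 genes. The 2 coding windows printed next show how exact these copies are. In them, capitals mark the 50 bases found letter for letter in other gene models, and lower case the flanks.
Gapdh: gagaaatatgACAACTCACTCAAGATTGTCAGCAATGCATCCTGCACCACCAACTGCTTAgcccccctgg
Pgam1: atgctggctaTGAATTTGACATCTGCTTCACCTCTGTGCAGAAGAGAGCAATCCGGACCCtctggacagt
The Gapdh window lies at chr6:125162887-125162956 on the minus strand, and its capitals occur in 83 other models, 80 of them pseudogenes. The Pgam1 window lies at chr19:41915605-41915674 on the plus strand, and its capitals occur in 2 other models, both pseudogenes.

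**Figure D1:**
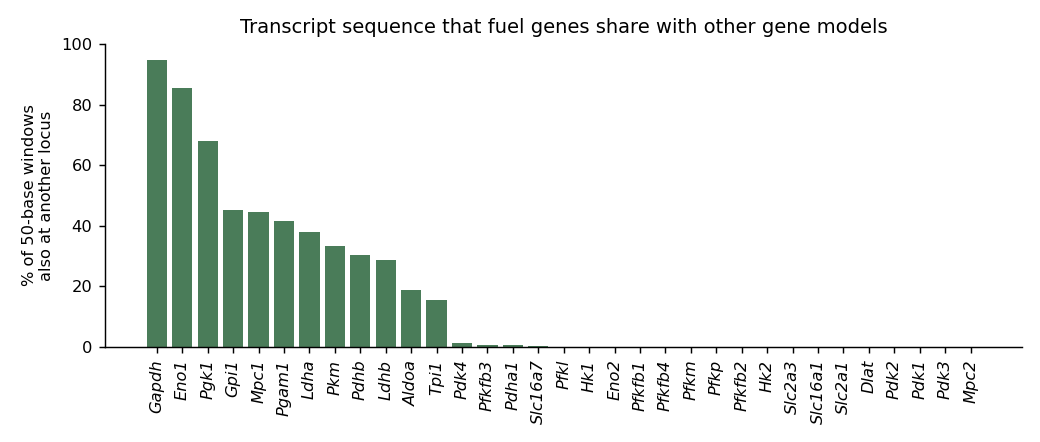
Percentage of 50-base stretches that also occur in other gene models (the transcript with the highest share, vertical axis) for each of the 33 fuel genes. Gapdh, Eno1 and Pgk1 are at 94.6%, 85.5% and 68.0%, while 21 genes are under 2%.

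Gapdh was at 8.53, 13.6 and 17.4 CPM in the saline IP libraries, 19.0, 14.9, 16.4, 20.1 and 5.26 CPM in the cocaine IP libraries, 11 CPM in the input and 5.65 CPM in the unbound RNA. Aldoa, the aldolase that feeds it, had 945 ± 68.0 CPM (SD, n = 3) in the saline IP libraries and Pkm, the pyruvate kinase, 326 ± 7.29 CPM, while Pgk1 and Pgam1, which also have copies, were at 20.9 ± 2.59 and 7.30 ± 0.734 CPM. Gapdh, Pgk1, Pgam1, Eno1, Gpi1 and Mpc1 are therefore uncertain in every value given here, since reads from the gene and from its copies could have been left out or split. Exons of 14 genes overlap another gene model, on the opposite strand in 13, and whether the counting used strand is not given in the sources used here.

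To compare levels between genes, CPM were divided by a length for each gene, given as unique kb. This length counts the stretches of the gene's protein-coding transcripts that occur in no transcript of another gene model. Other exons of the gene were left out, and the genome outside annotated transcripts was not searched. On this scale the saline IP libraries held most of Aldoa (430 ± 31.0 CPM per unique kb, SD, n = 3), Ldhb (395 ± 37.9), Eno2 (332 ± 44.7) and Mpc2 (190 ± 31.9). Libraries of Aldoa overlapped those of Ldhb, and libraries of Ldhb those of Eno2. Those of Mpc2 were all below Eno2 and above Pdhb (137 ± 4.16), a subunit of pyruvate dehydrogenase. Tpi1 (132 ± 8.97), the triose phosphate isomerase, did not differ from Pdhb beyond the spread. Mpc2 had 976 stretches against an exon length of 7344 bases, and Pdhb 1464 stretches, 443 of them found elsewhere, against 3861 bases. The place of Mpc2 above Pdhb therefore depends on this divisor, and division by exon length was not tried. At the other end were Slc2a1 (2.57), Slc16a1 (2.29) and Slc16a7 (1.09 CPM per unique kb), and then Pfkfb4, Pdk4, Eno1, Pfkfb1 and Hk2, from 0.274 down to 0.0363 CPM per unique kb. Hk2, the hexokinase known for its induction in growing cells, had 3, 10 and 5 reads in the saline IP libraries and 7, 8, 4, 2 and 25 in the cocaine IP libraries.

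**Figure D2:**
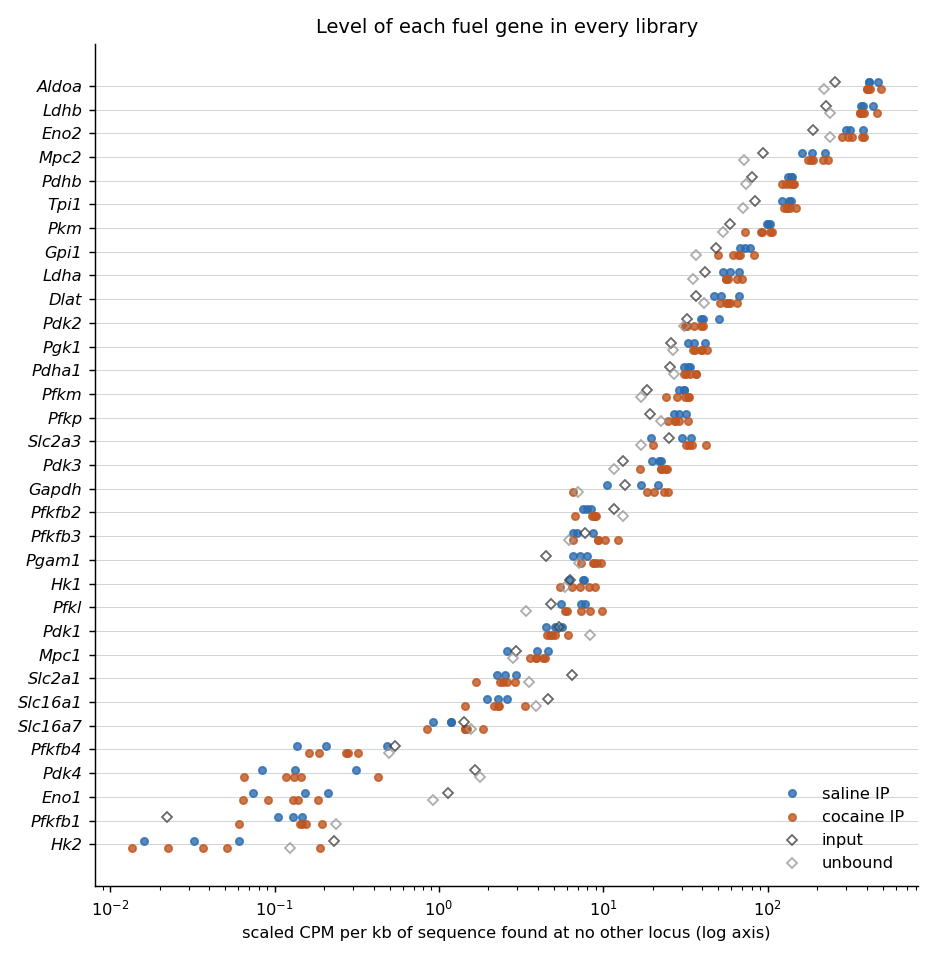
Scaled CPM per unique kb (log axis) of each fuel gene in all 10 libraries, one row per gene, with a symbol for each of the 4 groups. Genes are ordered by their saline IP mean, from Aldoa, Ldhb and Eno2 (430, 395 and 332 CPM per unique kb) to Hk2 (0.0363).

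The first comparison set ribosome-bound RNA of the Drd2 line beside RNA of the whole striatum. Most enzymes of glycolysis and pyruvate oxidation had higher CPM in the IP than in the input, by less than 2-fold, while Slc2a1, Slc16a1, Slc16a7, Pdk4, Pfkfb2 and Pfkfb4 were lower in every library. Of the 33 genes 30 averaged at least 1 CPM and entered; Hk2, Pfkfb1 and Eno1 did not. The summed level of the 33 genes was 4698 to 5058 CPM in the saline IP libraries and 3108 CPM in the input. Across the 30 genes the median log2 ratio of IP to input, computed on CPM plus 1, was 0.47 ± 0.07 (SD over 3 libraries), against 0.06 over all genes. With library size alone as the scaling the values were 0.26 and -0.14. With a filter of 5 CPM in place of 1 they were 0.53 and 0.19, so the median over all genes depends on the level required. In bulk RNA, fewer cells of a type and less RNA per cell cannot be told apart. The input is 1 library, so this comparison has no test, and IP and reference libraries also came from different sequencing lanes (4, 6 and 7 against 1), so that lane and fraction cannot be told apart. A gene was called when every IP library passed 2-fold in the same direction. By that rule 0 of the 30 genes were higher, where 1.38% of the 13388 genes compared were, and 2 were lower, Slc2a1 and Pdk4, where 14.0% of all genes were. Pdk4 and Pfkfb4 entered through their levels in the input alone (saline IP means 0.607 and 0.957 CPM), so the filter itself favours a lower ratio for them. The ratio of Pdk4 also depends on the added 1 CPM.

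The second comparison set the 5 cocaine IP libraries beside the unbound RNA, which is not the same fraction as the input and came from another treatment. Here the median was 0.49 ± 0.06 (SD, n = 5), against 0.10 over all genes, and the summed level was 4575 to 5379 CPM against 3091 CPM. Mpc2 was called higher, where 3.54% of 13317 genes were, and Pdk4 lower, where 13.0% were. Pdk4 and Pfkfb4 entered through the unbound library alone, with cocaine IP means of 0.608 and 0.851 CPM. Ratios above 0 in every IP library were found for 18 genes in the first comparison and 21 in the second, and below 0 in every library for 6 in each. Over all genes, 5512 of 13388 were above 0 in every library in the first comparison and 5517 of 13317 in the second. Those below 0 in every library were 4854 and 4528. With library size alone the counts above 0 were 18 and 16 and those below 0 were 9 and 6, Pfkfb3, Pdk1 and Eno1 joining those below the input. With DESeq2 factors the counts above 0 were 18 and 18. For these other scalings no such count over all genes is given.

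**Figure D3:**
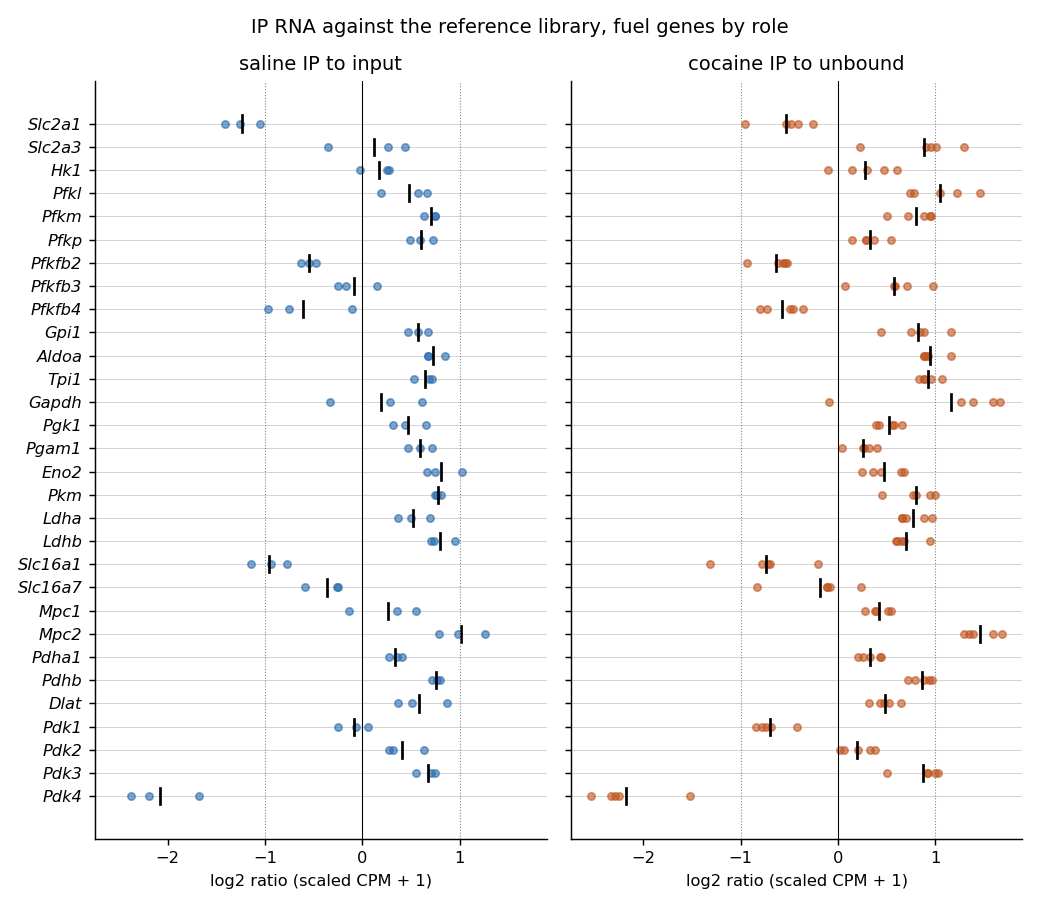
Log2 ratio (CPM plus 1) of each saline IP library to the input (one panel) and each cocaine IP library to the unbound library (the other), genes grouped by role. Most glycolytic enzymes sit between 0 and 1, Pdk4 is near -2 in both panels, and Slc2a1 and Slc16a1 are below 0 in every library.

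The glucose transporter genes differed in their ratios to the references. Slc2a1, at chr4:119108711-119137983 on the plus strand, encodes GLUT1, the transporter of the blood-brain barrier and of glia. It had 8.08, 9.09 and 10.6 CPM in the saline IP libraries against 23.1 CPM in the input, and 6.05, 8.79, 8.42, 9.32 and 10.5 CPM in the cocaine IP libraries against 12.7 CPM in the unbound library. All 8 IP libraries were below both references. Its mean log2 ratio was -1.24 ± 0.18 (SD, n = 3) to the input and -0.53 ± 0.26 (n = 5) to the unbound RNA, where no library was 2-fold lower. Endothelial and astrocyte marker sums were lower in the same libraries, as given above, and their part in the Slc2a1 values was not tested.

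Slc2a3, at chr6:122727809-122801640 on the minus strand, encodes GLUT3, the high-affinity transporter of neurons. It had 84.5, 148 and 131 CPM in the saline IP libraries against 108 CPM in the input, and 86.4, 138, 182, 149 and 144 CPM in the cocaine IP libraries against 73.5 CPM in the unbound library. Both libraries numbered 1 were the lowest of their group, and saline IP library 1 was below the input. The mean log2 ratio was 0.12 ± 0.42 to the input, a value that turned to -0.09 with library size alone, and 0.88 ± 0.39 to the unbound RNA.

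At the first steps of glycolysis hexokinase overlapped the references and phosphofructokinase did not. Hk1, the hexokinase of neurons bound to mitochondria, had 40.6, 49.4 and 49.9 CPM in the saline IP libraries, 42.5, 53.7, 47.4, 58.8 and 35.7 CPM in the cocaine IP libraries, 41.2 CPM in the input and 38.3 CPM in the unbound library. Its groups overlapped the references, and its mean ratio to the input (0.17 ± 0.16) changed sign with library size alone. The phosphofructokinase subunits, which form the committed step, were above both references in every IP library: the muscle type Pfkm by 0.71 ± 0.07 and 0.80 ± 0.19 on the log2 scale, the platelet type Pfkp by 0.60 ± 0.12 and 0.33 ± 0.14, and the liver type Pfkl by 0.48 ± 0.25 and 1.05 ± 0.30. Pfkp was not above the unbound library in every cocaine IP library without scaling factors.

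The PFKFB enzymes make and break down the small molecule that activates phosphofructokinase, and their ratios were on both sides of 0. Pfkfb2 was below the reference in every IP library, at 39.0, 41.3 and 43.6 CPM against 60.9 CPM in the input and at 45.7, 35.3, 44.2, 46.5 and 47.2 CPM against 68.2 CPM in the unbound library. Its mean log2 ratios were -0.55 ± 0.08 and -0.64 ± 0.17. Pfkfb4 was also below in every library, with ratios of -0.61 ± 0.45 and -0.57 ± 0.19 at levels under 2 CPM. It entered each comparison through the reference alone. Saline IP library 4 (1.68 CPM) lay inside the 95% exact Poisson interval of the input (1.34 to 2.58 CPM). Pfkfb3, an isoform with high kinase activity, overlapped the input (-0.09 ± 0.21, with all 3 libraries below it under library size alone) and was above the unbound RNA by 0.58 ± 0.33. Against the unbound RNA its lowest library was at -0.05 with library size alone and at -0.01 with DESeq2 factors. Pfkfb1, the liver isoform, had 0.229 to 0.322 CPM in the saline IP libraries and 0.0484 CPM in the input.

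Of the 9 enzymes from aldolase and glucose phosphate isomerase to pyruvate kinase, 8 entered and 7 were above the reference in every IP library in each comparison. Over all genes 5512 of 13388 and 5517 of 13317 were. Together the 9 enzymes made up 2875 ± 157 CPM in the saline IP libraries against 1705 CPM in the input. Aldoa was 0.73 ± 0.10 and 0.95 ± 0.12 above its references on the log2 scale, Tpi1 0.64 ± 0.10 and 0.92 ± 0.09, and Pkm 0.78 ± 0.03 and 0.80 ± 0.21. Pgam1 was no longer above the unbound RNA in every library with library size alone (lowest -0.15) or with DESeq2 factors (-0.06). The exception was Gapdh, whose ratios of 0.19 ± 0.48 and 1.16 ± 0.72 had libraries on both sides of 0. Its pathway neighbours Pgk1 (0.47 ± 0.17 and 0.52 ± 0.11) and Pgam1 (0.59 ± 0.13 and 0.26 ± 0.13) are, like Gapdh and Gpi1 (0.57 ± 0.11 and 0.82 ± 0.26), among the genes with copies shown above.

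The enolase isoforms lay on opposite sides of the references. Eno2, at chr6:124760053-124769673 on the minus strand, had 1357, 1056 and 1120.2 CPM in the saline IP libraries against 666 CPM in the input, and 1156, 1006, 1092, 1333 and 1358 CPM in the cocaine IP libraries against 849.8 CPM in the unbound library. Every IP library was above both references. Eno1, at chr4:150236721-150248879 on the plus strand, had 0.222, 0.107 and 0.306 CPM against 1.64 CPM, and 0.0936, 0.189, 0.132, 0.202 and 0.267 CPM against 1.34 CPM. These are 3 to 8 reads per IP library, against 34 in the input (95% exact Poisson interval 1.14 to 2.30 CPM) and 31 in the unbound library (0.909 to 1.90 CPM), intervals that cover counting error only. All 8 IP libraries were below both intervals. The sequence that Eno1 shares with Eno1b touches the counts of all 10 libraries.

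Lactate dehydrogenase interconverts pyruvate and lactate, and both subunits were above the references in every IP library. Ldhb, the heart-type subunit, had 559.9, 482 and 471 CPM against 289 CPM in the input, and 477, 464, 463, 489.8 and 589.7 CPM against 305 CPM in the unbound library. Ldha, the muscle-type subunit, had 171, 137 and 149 CPM against 106 CPM, and 142, 146, 142, 177 and 167 CPM against 89.6 CPM. Their mean log2 ratios were 0.80 ± 0.13 and 0.70 ± 0.15 for Ldhb and 0.52 ± 0.16 and 0.77 ± 0.15 for Ldha.

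The monocarboxylate transporters, which move lactate and ketone bodies across the cell membrane, were not among the genes above the references. Slc16a1 (MCT1) had 8.59, 11.4 and 10 CPM in the saline IP libraries against 20.2 CPM in the input, and 6.30, 9.99, 9.51, 10.2 and 14.7 CPM in the cocaine IP libraries against 17.1 CPM in the unbound library. Every IP library was lower, with mean ratios of -0.96 ± 0.18 and -0.74 ± 0.39, and in the saline comparison the library closest to the input was at -0.78, short of the 2-fold that Slc2a1 passed by its closest library at -1.06. Slc16a7 (MCT2), the neuronal transporter, had 10.8, 13.8 and 13.9 CPM against 16.7 CPM, and 9.85, 17.3, 21.7, 16.9 and 16.9 CPM against 18.3 CPM. It was below the input in every saline IP library (-0.36 ± 0.19) and overlapped the unbound RNA (-0.18 ± 0.39).

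The genes for entry of pyruvate into mitochondria included the highest ratio of the set. Mpc2, at chr1:165460637-165481214 on the plus strand, encodes a subunit of the mitochondrial pyruvate carrier. It had 157, 219 and 181 CPM in the saline IP libraries against 90.8 CPM in the input, and 172, 211, 179, 184 and 226 CPM in the cocaine IP libraries against 69.6 CPM in the unbound library. Every IP library was above both references, and the mean log2 ratios were 1.01 ± 0.24 (range 0.79 to 1.26) and 1.46 ± 0.17 (range 1.30 to 1.68). Its partner subunit Mpc1 had 3.61 to 6.42 CPM in the 8 IP libraries, with ratios of 0.26 ± 0.35 and 0.42 ± 0.11, and is one of the genes with copies. The pyruvate dehydrogenase subunits Pdha1 (0.34 ± 0.06 and 0.33 ± 0.11) and Pdhb (0.76 ± 0.04 and 0.86 ± 0.10) and the acetyltransferase Dlat (0.58 ± 0.26 and 0.48 ± 0.12) were above the reference in every IP library, apart from Pdha1 in the second comparison without scaling factors.

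The kinases that switch this complex off went separate ways. Pdk4, at chr6:5483351-5496309 on the minus strand, is the isoform known for its induction by fasting and fatty acids. It had 1.08, 0.286 and 0.458 CPM in the saline IP libraries against 5.66 CPM in the input, and 1.47, 0.453, 0.495, 0.404 and 0.223 CPM in the cocaine IP libraries against 6.08 CPM in the unbound library. Each IP library was well below both references, with mean ratios of -2.08 ± 0.36 and -2.18 ± 0.39. With 0.1 CPM added in place of 1 they were -3.19 and -3.34, and with 5 CPM added -0.93 and -0.99, under 2-fold. Against the input the value with 5 CPM added, -0.93, was no lower than that of Slc2a1 (-0.98). Both libraries numbered 1 had the most Pdk4 among the IP libraries. Pdk3 was above the reference in every library (0.67 ± 0.10 and 0.87 ± 0.21), as was Pdk2 (0.41 ± 0.20 and 0.20 ± 0.16). In the second comparison this did not hold for Pdk2 without scaling factors or with DESeq2 factors (lowest -0.07). Pdk1 overlapped the input (-0.09 ± 0.16, with all 3 libraries below it under library size alone) and was below the unbound RNA in every library (-0.70 ± 0.16).

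The isoforms set as neuronal against glial were compared within each library, as log2 of the ratio of their CPM plus 1, which does not depend on scaling apart from the added 1. Eno2 to Eno1 was 1.94 higher in the saline IP libraries than in the input (range 1.77 to 2.14) and 1.47 higher in the cocaine IP libraries than in the unbound RNA (1.22 to 1.61). Slc2a3 to Slc2a1 was 1.36 (1.05 to 1.70) and 1.41 (1.19 to 1.83) higher. In these pairs every IP library passed a 2-fold shift toward the neuronal isoform. The first of them rests on a gene at a few reads: with 0.1 or 5 CPM added in place of 1, the shift from input was 3.35 or 1.16, and from the unbound RNA 2.89 or 0.76.

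With 1 CPM added, the other pairs shifted less on average. Hk1 to Hk2 was 1.13 higher than in the input (1.05 to 1.26), so that every saline IP library passed 2-fold. Against the unbound RNA it was 0.67 (-0.39 to 1.29), with cocaine IP library 5 on the other side of 0. Hk2 is also at a few reads, and the shift of this pair and its rank depend on the added value, as given below. Slc16a7 to Slc16a1 was 0.59 (0.52 to 0.69) and 0.56 (0.10 to 1.02) higher, above the reference in every IP library but short of 2-fold. Ldhb to Ldha was 0.28 (0.21 to 0.37) higher than in the input and -0.08 (-0.29 to 0.06) from the unbound RNA. Neither lactate dehydrogenase comparison reached a 2-fold shift in any library. Within families, Pfkfb2 to Pfkfb3 was -0.46 (-0.69 to -0.30) and -1.22 (-1.64 to -0.64) from the references, in favour of Pfkfb3 in every IP library.

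**Figure D4:**
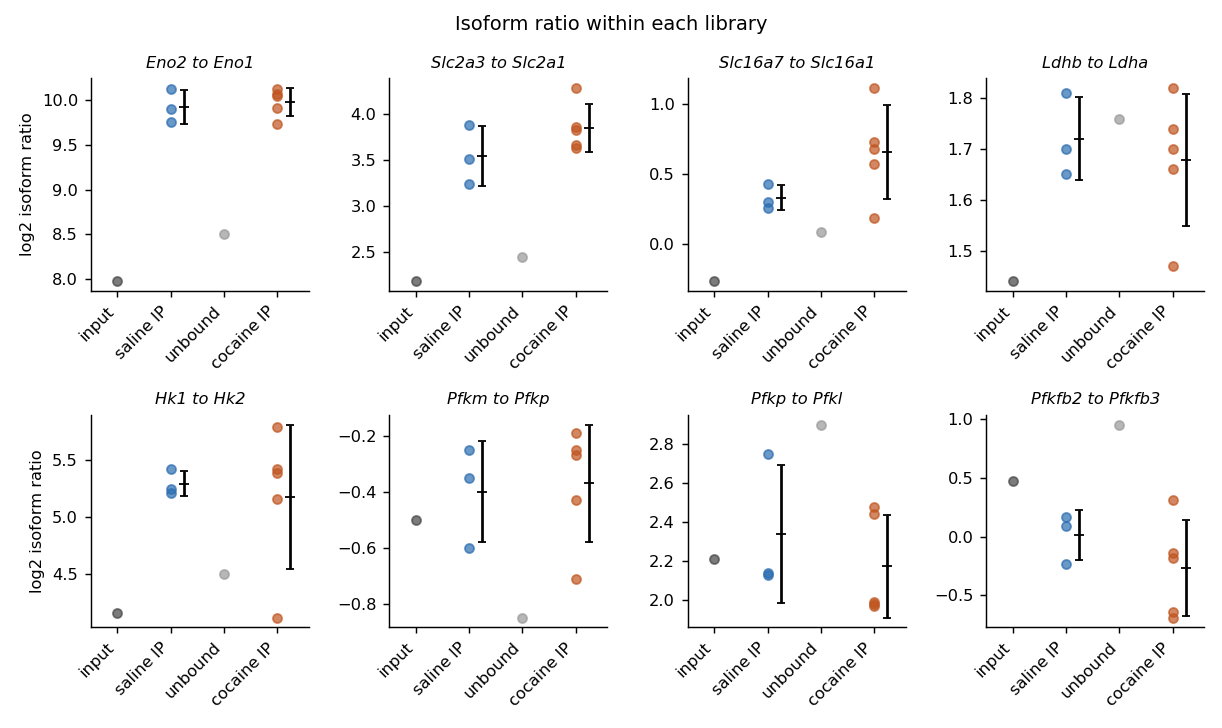
Log2 isoform ratio (CPM plus 1) of 8 pairs in each library, with a symbol for each of the 4 groups. For Eno2 to Eno1 the IP libraries lie at 9.73 to 10.12 and the references at 7.98 and 8.51, while for Ldhb to Ldha the IP libraries at 1.47 to 1.82 include the unbound value of 1.76.

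A second list of 44 genes of the same pathways, of which 43 were among the symbols, had medians near 0. It holds tissue-specific isoforms, other hexose and monocarboxylate transporters and their chaperones, pyruvate dehydrogenase phosphatases and glycogen enzymes. The 28 that entered had median log2 ratios of -0.09 ± 0.11 and -0.06 ± 0.10. Aldoc, the aldolase of astrocytes, was called lower in both comparisons: it had 61.3, 9.12 and 28.6 CPM against 257 CPM in the input, a ratio of -3.28 ± 1.32, and 72.1, 16.6, 16.6, 30.3 and 29.7 CPM against 276 CPM in the unbound RNA (-3.24 ± 0.84). Its IP values were highest in the libraries numbered 1. Pgam2, the muscle isoform of phosphoglycerate mutase, was called higher in both, at 24.4, 22.1 and 29.1 CPM against 6.92 CPM in the input (1.72 ± 0.19) and with a ratio of 1.58 ± 0.16 to the unbound RNA. Pdp1, a phosphatase that turns pyruvate dehydrogenase back on, followed at 0.74 ± 0.16 and 0.72 ± 0.13, under 2-fold.

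The third comparison asked whether cocaine self-administration changed these genes in the ribosome-bound RNA, with 5 cocaine against 3 saline IP libraries. No fuel gene passed the test, and DESeq2 also called 0 genes. Of the 30 genes tested 20 had a higher and 10 a lower estimate after cocaine, and the fold changes lay between -0.26 and 0.39 on the log2 scale, with a median of 0.036 against 0.006 over all genes. With edgeR's quasi-likelihood test and Benjamini-Hochberg adjustment over 13800 genes, the adjusted p was 0.9998 for each of them. The same test called 0.0% of all genes, and 2.14% had an unadjusted p under 0.05, among them 0 of the 30. In 0 of the 30 did the saline and cocaine libraries fail to overlap, where 2.31% of all genes did.

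The smallest unadjusted p belonged to Pfkfb3, at chr2:11471433-11554077 on the minus strand. It had 36.7, 48.5 and 38.7 CPM after saline and 36.6, 57.3, 69.4, 52.6 and 52.3 CPM after cocaine. Cocaine libraries 2 to 5 were above all saline libraries and cocaine library 1 was below them. The estimate was 0.39 (SE 0.18, 95% interval 0.0 to 0.78). Its unadjusted p was 0.0512 in edgeR's quasi-likelihood test, 0.0486 in DESeq2's Wald test, and the estimate was 0.27 without cocaine library 3. Slc16a7, with the values given above, was estimated at 0.37 (SE 0.21, interval -0.09 to 0.84), and again cocaine library 1 was the lowest and library 3 the highest of all 8. Lane and treatment overlapped: saline libraries 1 and 2 came from lane 7, cocaine libraries 3 to 5 from lane 4, and lane 6 alone held both, with saline library 4 and cocaine libraries 1 and 2. With the sequencing lane in the model the Slc16a7 estimate was -0.01, a value that rests on these 3 libraries and cannot tell an effect of lane from their spread.

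Pdk2 had 111, 85.9 and 88.8 CPM after saline and 89.1, 78.8, 71.2, 86.0 and 69.2 CPM after cocaine, an estimate of -0.26 (SE 0.13, interval -0.56 to 0.03). Saline library 1 was the highest of the 8, and without it the estimate was -0.14. Pgam1, uncertain for its copies, had 6.59, 7.26 and 8.06 CPM after saline and 8.83, 8.79, 7.4, 9.20 and 9.76 CPM after cocaine, an estimate of 0.28 (SE 0.15, interval -0.05 to 0.61). Each of these groups overlapped. With lane in the model the estimates were -0.05 for Pdk2 and 0.15 for Pgam1, which again compares 1 saline with 2 cocaine libraries.

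For most fuel genes the intervals were narrow. The 95% interval lay within 1 log2 unit of no change for 27 of 30 genes (90%, against 82.5% of all genes), and within 0.5 for 19 (63.3%, against 46.9%). The 3 genes with wider intervals were Pdk4 (-1.34 to 1.40), Pfkfb4 (-1.11 to 0.83) and Gapdh (-0.56 to 1.0), so that a 2-fold change of Pdk4 either way, and a 2-fold lower level of Pfkfb4, lay inside the interval. None of the isoform pairs passed the test between treatments: the largest difference was 0.33 for Slc16a7 to Slc16a1 (exact permutation test over 56 assignments, two-sided p = 0.143, adjusted p = 0.857 over 8 pairs), where the smallest p the design allows is 0.0357 and a single pair at that p would have an adjusted p of 0.286, so that no pair could pass alone. Slc2a3 to Slc2a1 differed by 0.31 (exact permutation p = 0.214) and Eno2 to Eno1 by 0.05 (exact permutation p = 0.786). In the second list 0 of 32 genes tested passed, and Pcx, the pyruvate carboxylase, was the 1 gene whose groups did not overlap (3.1%, against 2.31% of all genes), at 7.83, 7.98 and 8.82 CPM after saline and 6.08, 7.13, 6.28, 7.43 and 4.46 CPM after cocaine (log2 change -0.38, SE 0.18, unadjusted p = 0.0577 in edgeR). Pgm2l1, which makes glucose bisphosphate, was estimated at 0.28 (SE 0.13), and at -0.02 with lane in the model, which again compares 1 saline with 2 cocaine libraries.

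**Figure D5:**
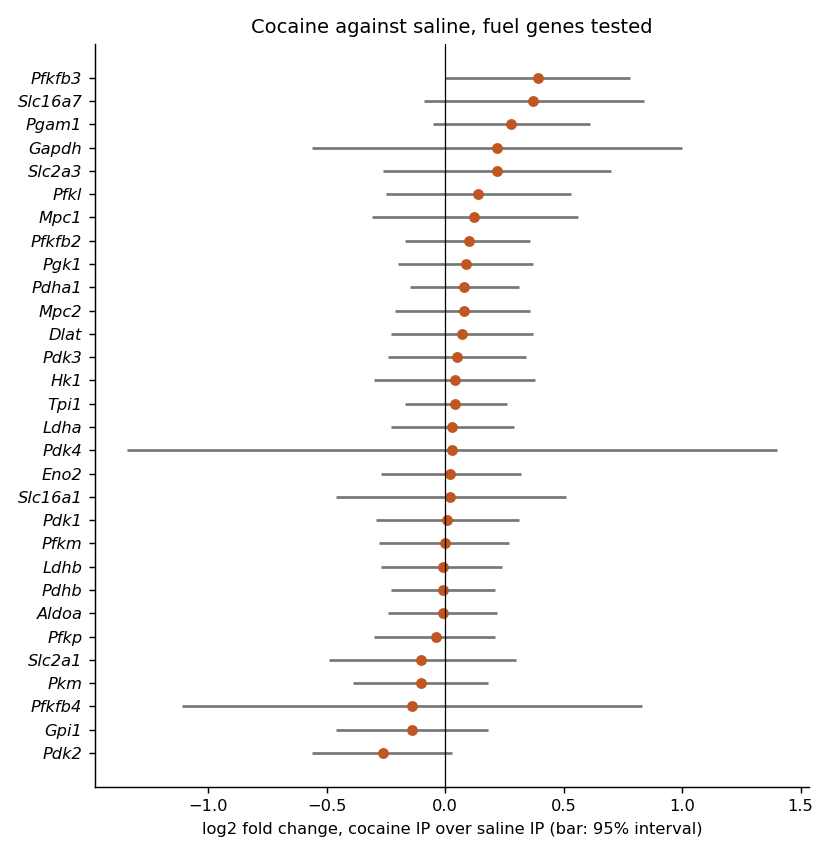
Log2 fold change of cocaine against saline IP libraries (edgeR) with 95% intervals for the 30 fuel genes tested. Estimates lie between -0.26 and 0.39, and the intervals include 0, with that of Pfkfb3 starting at 0.0.

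Part of the spread within groups followed the library numbers. Both libraries numbered 1 were below the other 6 IP libraries for 7 of the 30 genes: Slc2a1, Slc2a3, Slc16a1, Slc16a7, Pfkl, Pfkfb3 and Mpc2. This was 23.3%, against 15.8% of all genes tested. All 4 glucose and monocarboxylate transporters of the set were among them. Both were above the other 6 for Dlat, Pdk2 and Pdk4, 10% against 9.34% of all genes. The same libraries had the lowest indirect-pathway and the highest cholinergic and oligodendrocyte marker sums, and the part of that in these values was not tested.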

How the data were processed

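The labels describe 10 libraries of striatal RNA from 1 transgenic line. Per the submitters' processing notes, STAR 2.0.0e, HTSeq and the mm10 build were used. The deposited values are raw read counts per gene symbol, 1 table per library. The read length, the strand setting and the annotation were not given in the sources used here. Rows that name no gene were left out of library sizes: reads in no feature made up 12.9% to 14.4% of the uniquely placed reads in the IP libraries and 25.5% to 27.4% in the other 2. A floor of 3 reads is 0.095 to 0.131 CPM in the IP libraries.

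Counts were scaled with TMM (edgeR 4.0.16, R 4.3.3) to CPM over all 10 libraries. Ratios to the input and unbound libraries used CPM plus 1 for genes averaging at least 1 CPM, and have no test. Cocaine and saline IP libraries were compared with edgeR's quasi-likelihood test on the counts after filterByExpr (common biological coefficient of variation 0.199), with Benjamini-Hochberg adjustment. DESeq2 1.42.0, other scalings, priors and filters, lane, a replicate block and leaving out each library were the alternatives. The model script was checked on simulated counts. Every pair of IP libraries of the same treatment differed by more than counting noise, the smallest ratio of chi-square to degrees of freedom being 20.2. Pairs across groups were not compared in this way. Libraries with the same number deviated together (correlations of 0.706, 0.619 and 0.314 for numbers 1, 2 and 4 over 9618 genes), and were taken as pairs for the block. Over all 13800 genes tested the correlations were 0.5, 0.337 and 0.0987. Over the 9618 genes the highest correlation with a cocaine library of another number was -0.000948, 0.435 and 0.209, so the pairing is less clear for numbers 2 and 4.

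Named in full were the genes of the neuronal to glial pairs, the 3 highest and 3 lowest ratios to input, the 4 smallest unadjusted p-values, and the equivalent 2 of each kind in the second list. A gene that this rule names in the second list is not reported here. The genes, lists and pairs were chosen with earlier results of these data known. Ratios to the input and to the unbound RNA were not tested against each other, and the treatment comparison uses the same IP libraries as both.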

Additional observations from a re-analysis of the deposited data

Results flagged for a closer look

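Within the 5 cocaine IP libraries, 33 fuel genes, 8 isoform ratios and 6 genes of the second list were examined for a library whose gap to the nearest other was over 0.71 of the range (Dixon's 95% value for 5 samples). Chance gives about 1 in 20, and 7 were found, 3 of them in library 5. Hk2 was at 1.11 CPM in library 5, against 0.0807 to 0.302 CPM in the others. Ldhb was highest there, at 589.7 CPM against 463 to 489.8 CPM, and Pdk3 lowest, at 34.5 CPM against 46.2 to 50.1 CPM. Pfkfb2 was lowest in library 2, at 35.3 CPM against 44.2 to 47.2 CPM. Aldoa was highest in library 4, at 1075 CPM against 885 to 915 CPM. Pdk4 was highest in library 1, at 1.47 CPM against 0.223 to 0.495 CPM, and Aldoc of the second list was highest there too, at 72.1 CPM against 16.6 to 30.3 CPM.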

How the results depend on the processing

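No gene passed in cocaine against saline under any of 15 alternatives. The replicate block on numbers 1, 2 and 4 gave 0 genes, with a smallest adjusted p of 0.0599, 903 genes at an unadjusted p under 0.05 (141 when these 6 libraries were fitted unpaired, 295 with all 8, 443 in DESeq2 with all 8) and an estimate for Pfkfb3 of 0.23 (adjusted p = 0.747, edgeR). It changed no gene's call. Hk1 to Hk2 turned from -0.12 to 0.15 under it (adjusted p = 0.667, exact permutation over sign flips), a test of 3 pairs that allows no p under 0.25 and so could not pass. With lane as a covariate, which leaves 1 saline and 2 cocaine libraries of lane 6 to compare, Slc16a7 was -0.01 and Pgm2l1 -0.02. In the same model Pdk2 was -0.05, Pgam1 0.15, Pfkfb3 0.3 and Pcx -0.39. Without the lane 4 libraries Eno2 to Eno1 was -0.03. Leaving out 1 library at a time, the treatment differences of the pairs ran from -0.07 to 0.12 (Pfkm to Pfkp), -0.27 to 0.04 (Pfkp to Pfkl), -0.08 to 0.01 (Ldhb to Ldha, 0.0 without saline library 2), -0.03 to 0.15 (Eno2 to Eno1) and -0.27 to 0.15 (Hk1 to Hk2).

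Against the input, 4 fuel genes were lower with library size alone (Slc2a1, Pdk4, Slc16a1 and Eno1), 0 with 5 CPM added and 1 with a filter of 5 CPM (Slc2a1). The median was 0.26 with library size alone, where 68 of all genes were higher in place of 185. That number ran from 214 to 335 when 1 library was left out, the highest without saline library 1. Against the unbound RNA, the median was 0.32 with library size alone, 0.40 with DESeq2 factors, 0.58 with a filter of 5 CPM and 0.42 with no filter. With library size alone 247 of all genes were higher in place of 472, and leaving out 1 library gave 477 to 705. No fuel gene was lower, a count of 0, with 5 CPM added or filtered, and 1 to 2 were higher with 1 library left out, Gapdh joining Mpc2 without cocaine library 5. Among the pairs, adding 0.1 CPM gave 3.35 and 2.89 for Eno2 to Eno1 and 2.47 and 1.48 for Hk1 to Hk2. Adding 5 CPM gave 1.16 and 0.76 for Eno2 to Eno1, 0.44 for Hk1 to Hk2 and 0.46 for Slc16a7 to Slc16a1 against the input. The added value and the filter act on genes at a few CPM by construction; other causes were not tested. The single input and unbound libraries limit both ratio comparisons.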

Other observations

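Across 28 fuel genes at 5 CPM or more, the deviation of a library from the mean of its group was set beside the GC content of the gene model, as a description across genes, which are not independent. In cocaine IP library 4 Spearman's rho was 0.63 and in cocaine IP library 5 it was -0.40, while the other 6 IP libraries lay between -0.13 and 0.17. In the second list both IP libraries numbered 1 were above the other 6 for 7 of 32 genes (21.9%, against 9.34% of all genes). They were below for 5 (15.6%, against 15.8% of all genes). These values were noticed after the data were seen, and no test was run on them.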
